A study of Mus musculus with 2 samples.

Results

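The membrane-spanning 4-domains A (Ms4a) genes code for small proteins that cross the cell membrane, and 8 of them with well-known places in immune cells were followed across the cells of B16 melanomas: Ms4a1, Ms4a4a, Ms4a4b, Ms4a4c, Ms4a6b, Ms4a6c, Ms4a6d and Ms4a7. They were taken by symbol from the 31053 genes of the count matrix, which holds 11 other Ms4a genes, and the rule uses symbols only. Live CD45+ cells, the leukocyte fraction, had been sorted from subcutaneous B16 tumours of C57BL/6 mice aged 8 weeks. The group called WT was Mettl3 fl/fl Lyz2 +/+ and the group called KO was Mettl3 fl/fl Lyz2 cre/+, so both carried the floxed Mettl3 alleles and they differed in the Cre recombinase inserted at Lyz2. Lyz2 drives Cre in monocytes, macrophages and granulocytes, while lymphocytes serve as cells outside its reach. Each genotype was 1 library of 3′-end UMI counts, a UMI being a tag that marks 1 captured RNA molecule, and each library was a pool of 5 mice.

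With 1 library per genotype no test between genotypes was possible. All intervals are 95% intervals of counting error only, exact Poisson for levels, exact binomial (Clopper-Pearson) for shares and exact conditional binomial for log2 ratios, and they compare the 2 libraries rather than the genotypes. The libraries held 5895 barcodes labelled WT and 8446 labelled KO, of which 5405 and 7625 were kept, with medians of 4137 and 3563 UMIs per cell, and 13 barcode sequences occurred in both libraries. Cells were placed in classes by marker genes that include no Ms4a gene. The macrophage markers, among them C1qa, Adgre1 and Trem2, summed to 9890 and 9735 CPM (UMIs of the gene or genes per 1000000 UMIs of the class in that library) in the macrophage class, and the T cell markers to 3444 and 3129 in the T cell class. Mettl3 itself was at 9.87 CPM in macrophages labelled WT (186 UMIs) and 11.2 in those labelled KO (201 UMIs), with a log2 ratio of KO over WT of 0.18 (-0.11 to 0.48). The level was thus not lower in the library labelled KO. Tags at the 3′ end may lie outside the deleted exons, whose position is not given in the sources used here, and what this level says of the deletion was not tested. Groups are therefore named below as the libraries labelled WT and KO. Lyz2, the locus that carries Cre, was at 6011 and 2697 CPM in macrophages.

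Ms4a proteins have 4 membrane-spanning stretches, and several sit beside signalling receptors. Ms4a1 is CD20, the B cell surface protein that therapeutic antibodies target. Ms4a4b is a T and NK cell protein that associates with GITR (Tnfrsf18), a costimulatory receptor. Ms4a4a, Ms4a6d and Ms4a7 are known from monocytes and macrophages, Ms4a7 as a marker of mature tissue macrophages, and Ms4a2, the beta chain of the high-affinity IgE receptor of mast cells, is a relative outside the 8.

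The genes lie in 1 cluster. In the mouse build GRCm38 the 19 Ms4a genes occupy 678.6 kb of chromosome 19 (10962293 to 11640851), and the 8 followed here span 355.2 kb. Ms4a1 (11249675 to 11266241, minus strand) and Ms4a7 (11321039 to 11336146, minus) come first. Ms4a4a (11375523 to 11392790), Ms4a4c (11404770 to 11427246), Ms4a4b (11443553 to 11467055), Ms4a6c (11469366 to 11482192) and Ms4a6b (11516512 to 11531256) follow on the plus strand, and Ms4a6d (11586604 to 11604849) is on the minus strand. Ms4a4b and Ms4a6c are the closest pair, 2310 bases apart, and the data below place them in different cells. The 4 promoters shown here belong to the neighbouring pairs Ms4a4c with Ms4a4b and Ms4a6c with Ms4a6b. In T cells Ms4a4b and Ms4a6b were far above their partners. They are RefSeq windows of build GRCm38.p6, 250 bases before to 50 bases after the RefSeq start of each gene, on the plus strand of chr19:11407411-11407710, chr19:11443308-11443607, chr19:11469118-11469417 and chr19:11518309-11518608. The windows of Ms4a4c and Ms4a6b lie inside the gene spans given above, downstream of the annotated first base, and those of Ms4a4b and Ms4a6c flank it. Capitals mark runs of at least 8 identical bases in the alignment with the other window of the pair.
Ms4a4c: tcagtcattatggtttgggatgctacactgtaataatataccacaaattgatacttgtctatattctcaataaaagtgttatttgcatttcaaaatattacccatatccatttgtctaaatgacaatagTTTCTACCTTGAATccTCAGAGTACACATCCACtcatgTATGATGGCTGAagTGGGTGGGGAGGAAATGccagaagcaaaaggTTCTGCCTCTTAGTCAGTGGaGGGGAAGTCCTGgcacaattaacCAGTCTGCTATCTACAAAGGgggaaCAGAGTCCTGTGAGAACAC
Ms4a4b: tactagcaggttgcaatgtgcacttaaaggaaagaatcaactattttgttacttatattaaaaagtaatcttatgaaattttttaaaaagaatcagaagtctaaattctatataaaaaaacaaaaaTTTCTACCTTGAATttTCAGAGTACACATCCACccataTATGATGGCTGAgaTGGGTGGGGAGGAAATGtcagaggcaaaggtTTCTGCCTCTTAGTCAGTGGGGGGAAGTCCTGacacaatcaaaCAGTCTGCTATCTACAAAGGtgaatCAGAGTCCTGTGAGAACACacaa
Ms4a6c: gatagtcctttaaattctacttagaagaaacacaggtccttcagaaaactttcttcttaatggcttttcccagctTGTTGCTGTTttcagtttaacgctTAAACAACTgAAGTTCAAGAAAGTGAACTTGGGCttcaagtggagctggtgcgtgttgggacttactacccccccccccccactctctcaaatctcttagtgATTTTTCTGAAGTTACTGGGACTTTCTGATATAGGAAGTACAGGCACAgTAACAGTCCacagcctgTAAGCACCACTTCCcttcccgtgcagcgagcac
Ms4a6b: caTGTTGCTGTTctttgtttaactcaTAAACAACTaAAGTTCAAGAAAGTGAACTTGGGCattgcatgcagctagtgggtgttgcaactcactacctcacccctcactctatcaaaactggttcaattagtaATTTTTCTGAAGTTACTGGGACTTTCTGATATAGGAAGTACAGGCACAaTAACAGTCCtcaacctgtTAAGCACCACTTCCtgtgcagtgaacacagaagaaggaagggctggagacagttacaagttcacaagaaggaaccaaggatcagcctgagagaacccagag

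The table of promoters held windows for 6 of the 8 genes (7 windows, Ms4a7 having a pair) and none for Ms4a1 or Ms4a6d. Ms4a4c and Ms4a4b were the most alike of the 21 pairs of windows, with 73.8% identical positions, against 48.3% to 53.6% for the other 20 pairs. Ms4a6c and Ms4a6b shared a run of 48 identical bases although their whole windows were at 52.3%. The letters GAAANNGAA, the core of the element bound by interferon-activated factors, were searched on both strands and occurred in 4 of the 7 windows (both of Ms4a7, Ms4a6c and Ms4a6b) and in 8.56% of 32851 promoter windows of the same length. The letters TATAAA occurred in 1 of the 7 windows (Ms4a4b) and in 13.6% of all windows, and the 2 motifs cannot overlap. A match of letters is a description and was not tied to any level below. Transcript ends are shared too: of the 50-base stretches in the last 500 bases of the protein-coding transcripts, 13.8% of those of Ms4a6c and 11.1% of those of Ms4a4c also occurred in another gene, mostly Ms4a6b and Ms4a4b, against 1.22% for Ms4a6b and none for the other 5 genes. How the counting assigned such reads is not given in the sources used here, so levels of Ms4a4c and Ms4a6c carry that uncertainty.

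The 8 genes divided by cell type. Ms4a1 was highest in B cells, Ms4a4b in NK and T cells, Ms4a7 in macrophages, and Ms4a4c, Ms4a6b, Ms4a6c and Ms4a6d in classical monocytes. Ms4a4a was highest in classical monocytes of the library labelled WT, and in that labelled KO its 9 UMIs in 130 nonclassical monocytes gave a level of 25.9 CPM, above the 21.3 of classical monocytes. With 1 tag per molecule, levels of different genes could be compared without scaling to transcript length. The 8 genes together reached 2090 and 2387 CPM in classical monocytes (WT and KO), 1616 and 1517 in macrophages, 1115 and 1057 in NK cells, 1011 and 1177 in type 2 conventional dendritic cells (cDC2), 940 and 1119 in B cells and 892 and 809 in T cells. In melanoma cells that passed the sort the highest of the 8 was Ms4a6c, at 10.1 and 6.12 CPM, and Ms4a1 had no UMI. Melanoma cells were deep (medians of 44651.5 and 33610.0 UMIs) and are no measure of the background in shallow classes: the macrophage markers summed to 69.9 and 67.8 CPM in them, to 236 and 212 in T cells and to 455 and 458 in granulocytes.

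**Figure D1:**
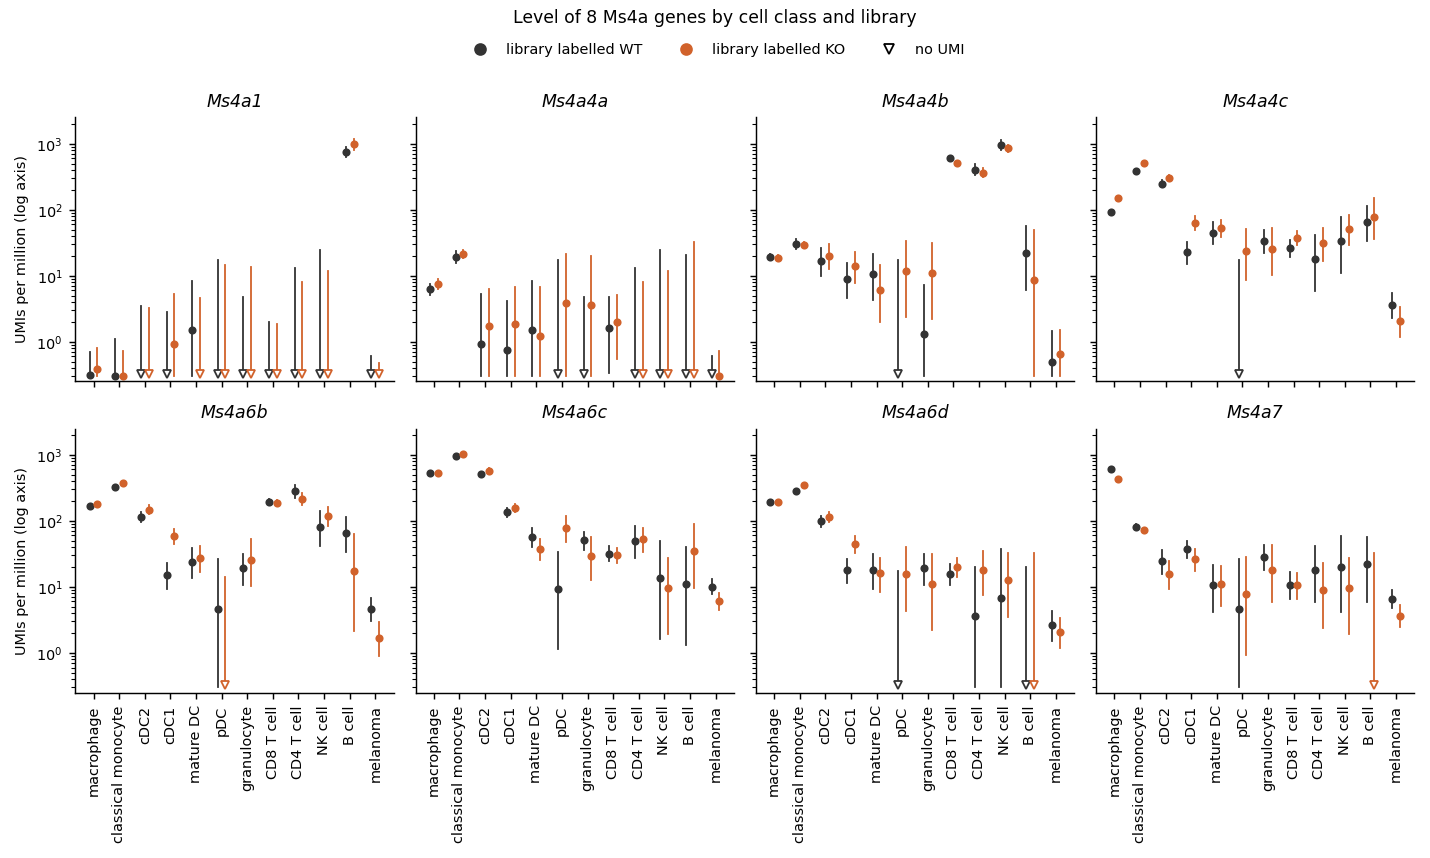
Level of each of the 8 genes (UMIs per 1000000, CPM, log axis) in 12 cell classes and subclasses, with 1 point per library and exact Poisson 95% intervals; values below 0.3 are drawn at 0.3 and open triangles mark classes without a UMI. Ms4a1 stands out in B cells, Ms4a4b in NK and T cells, Ms4a7 in macrophages, and Ms4a4c, Ms4a6c and Ms4a6d are highest in classical monocytes, in both libraries.

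Ms4a1, the B cell gene, gave 137 UMIs in 97 B cells labelled WT and 112 in 69 labelled KO, levels of 753 CPM (632 to 890.4) and 979 (806 to 1178). The log2 ratio was 0.38 (0.00 to 0.75), and the alternatives moved it between 0.11 and 0.49. Plasma cells, which lose CD20 as they mature, held 6 UMIs in 15 cells and 30 in 38 cells, levels of 34.7 and 85.5 CPM. With every cell thinned to 1000 UMIs, 51.1% of B cells labelled WT (40.3% to 61.8%, 46 of 90 cells) and 48.0% labelled KO (33.7% to 62.6%, 24 of 50) had an Ms4a1 UMI, against 63.9% and 66.7% unthinned at median depths of 1555 and 1190 UMIs. In T cells, at median depths of 2315 and 1807.5, no UMI occurred in 558 and 633 thinned cells. A floor of 3 cells would be 0.538% and 0.474% of them at that depth. It does not limit the share of cells that express the gene. Macrophages were at 0.318 and 0.389 CPM.

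The other proteins of the B cell receptor complex were read beside it in the same B cells. Cd79a, a signalling chain of the receptor, was at 1908 and 2115 CPM (log2 ratio 0.15, -0.09 to 0.39) and Cd79b at 1116 and 1329 (0.25, -0.06 to 0.56). Ms4a1 thus stood below both, and the intervals of their ratios include 0.

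Ms4a4b was the lymphocyte gene of the family. NK cells held 142 UMIs (65 cells) and 270 UMIs (151 cells), levels of 960.0 (WT) and 857 CPM (KO). CD8 T cells were at 603 and 506, CD4 T cells at 405 and 363, and all T cells at 570.0 and 486 (1422 and 1427 UMIs). NK cells were above CD8 T cells and CD8 above CD4 T cells in both libraries. B cells were far lower, at 22.0 and 8.74 CPM (4 and 1 UMIs), and whether this is background was not tested. Classical monocytes were at 30.2 and 29.4 and macrophages at 19.5 and 18.7 CPM, and melanoma cells at 0.496 and 0.651. The T cell markers summed to 64.8 and 44.3 CPM in macrophages, and their part in the Ms4a4b level there was not tested.

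Thinned to 1000 UMIs, 60.9% and 56.0% of NK cells, 55.6% and 52.9% of CD8 T cells and 40.4% and 35.0% of CD4 T cells had an Ms4a4b UMI (unthinned 83.1% and 76.8% in NK cells and 83.8% and 84.8% in CD8 T cells, at median depths of 1982 and 1665 and of 2802 and 2476.5 UMIs). The shares in granulocytes, which should lack it, were 0 of 399 cells and 0.820% of 122 cells, at median depths of 1335 and 1047.5 UMIs.

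Within T cells Ms4a4b differed with cell state. In CD8 T cells with a UMI of Gzmb, the granzyme of cytotoxic effectors, it was at 491 and 426 CPM, and in those without one at 835 and 825. T cells with a UMI of Tcf7, a transcription factor of naive and memory-like cells, were at 742 and 747 CPM, and those without one at 536 and 452. Proliferating T cells, by a UMI of Mki67, were at 379 and 342, and the rest at 718 and 641. Regulatory T cells, by a UMI of Foxp3, were far lower at 69.5 and 81.6, from 12 and 15 UMIs in 25 and 21 cells. Thus the level was higher in Gzmb-negative, Tcf7-positive and Mki67-negative cells in both libraries. CD8 T cells with a Gzmb UMI had more UMIs (medians of 5655 and 5938) than those without (2198.5 and 1723.5), and the part of depth and of total RNA content in these differences was not tested.

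GITR, the receptor that Ms4a4b is known to associate with, was read in the same lymphocytes. Tnfrsf18 was at 232 and 220 CPM in T cells (log2 ratio -0.08, -0.24 to 0.09) and at 169 and 216 in NK cells (25 and 68 UMIs). Its ligand gene Tnfsf18 had no UMI in T or NK cells of either library.

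Ms4a6b joined both lineages. It was at 328 and 371 CPM in classical monocytes, 283 and 215 in CD4 T cells, 193 and 186 in CD8 T cells, 166 and 178 in macrophages, 116 and 147 in cDC2 and 81.1 and 117 in NK cells. In the library labelled WT, the counting intervals of classical monocytes and CD4 T cells overlapped, and in that labelled KO those of CD4 T cells, CD8 T cells and macrophages did. Granulocytes were at 19.4 and 25.4 and melanoma cells at 4.63 and 1.69. Thinned, 27.9% and 30.2% of classical monocytes, 27.4% and 25.9% of T cells and 1.504% and 4.10% of granulocytes had a UMI. In T cells it followed the states seen for Ms4a4b: 129 and 149 CPM with a Gzmb UMI against 328 and 335 without one in CD8 T cells, 404 and 354 with Tcf7 against 184 and 195 without, and 106 and 129.8 with Mki67 against 308 and 304 without.

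Ms4a6c was the most abundant of the 8 in classical monocytes, at 962 and 1035 CPM (4809 and 10212 UMIs). Macrophages were at 525 and 538 and cDC2 at 507 and 575. These 2 classes had overlapping intervals in both libraries. Type 1 conventional dendritic cells (cDC1), which specialise in cross-presentation, were lower at 134 and 157, and T cells were at 43.7 and 37.1. Thinned, 60.1% and 63.8% of classical monocytes and 5.20% and 4.11% of T cells had a UMI. Ms4a6d was lower, at 285 and 348 CPM in classical monocytes, 191 and 192 in macrophages and 99.2 and 115 in cDC2, and macrophages were above cDC2 in both libraries, with 14.8 and 19.4 in T cells and no UMI in B cells. Both genes thus marked monocytes, macrophages and cDC2. Nonclassical monocytes, the patrolling type, were few (46 and 130 cells) and held Ms4a6c at 666 and 836 CPM, Ms4a6b at 227 and 305, Ms4a4c at 178 and 270.1 and Ms4a6d at 109.8 and 152.

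Ms4a4c, next to Ms4a4b and with the promoter most like it, was a monocyte gene: 386 and 511 CPM in classical monocytes (1929 and 5037 UMIs), 247 and 303 in cDC2, 91.9 and 152 in macrophages and 27.3 and 37.8 in T cells. The pair was thus opposite between lineages: in classical monocytes Ms4a4c was above Ms4a4b (386 against 30.2 in the library labelled WT), and in T cells below it (27.3 against 570.0). Thinned, 29.9% and 38.9% of classical monocytes, 8.28% and 16.1% of macrophages, 2.87% and 4.27% of T cells and 1.75% and 2.46% of granulocytes had a UMI of Ms4a4c. Ms4a4a, whose protein is known from macrophages, was sparse, at 19.2 and 21.3 CPM in classical monocytes (96 and 210 UMIs) and 6.26 and 7.62 in macrophages (118 and 137), with a UMI in 2.21% and 2.38% of thinned monocytes. Every other class held at most 9 UMIs of it per library.

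Ms4a7 was the macrophage gene. It was at 615 and 431 CPM in macrophages (11592 and 7742 UMIs) and at 79.8 and 71.5 in classical monocytes (399 and 705), and every other class was at 41.2 or below. The order of macrophages over monocytes is the opposite of that of Ms4a4c, Ms4a6c and Ms4a6d. Thinned, 36.4% and 27.1% of macrophages had a UMI (unthinned 74.7% and 63.4%, at median depths of 9881 and 7071), against 4.74% and 4.81% of classical monocytes and, as background, 1.43% and 1.26% of T cells.

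The makeup of the 8 genes' UMIs describes the same division. In macrophages Ms4a7 took 38.1% and 28.4% of them, Ms4a6c 32.5% and 35.4% and Ms4a4c 5.68% and 10.02%. In classical monocytes Ms4a6c took 46.0% and 43.4% and Ms4a4c 18.5% and 21.4%. Ms4a4b took 86.1% and 81.1% in NK cells and 63.9% and 60.1% in T cells, where Ms4a6b added 24.7% and 26.4%, and Ms4a1 took 80.1% and 87.5% in B cells.

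**Figure D2:**
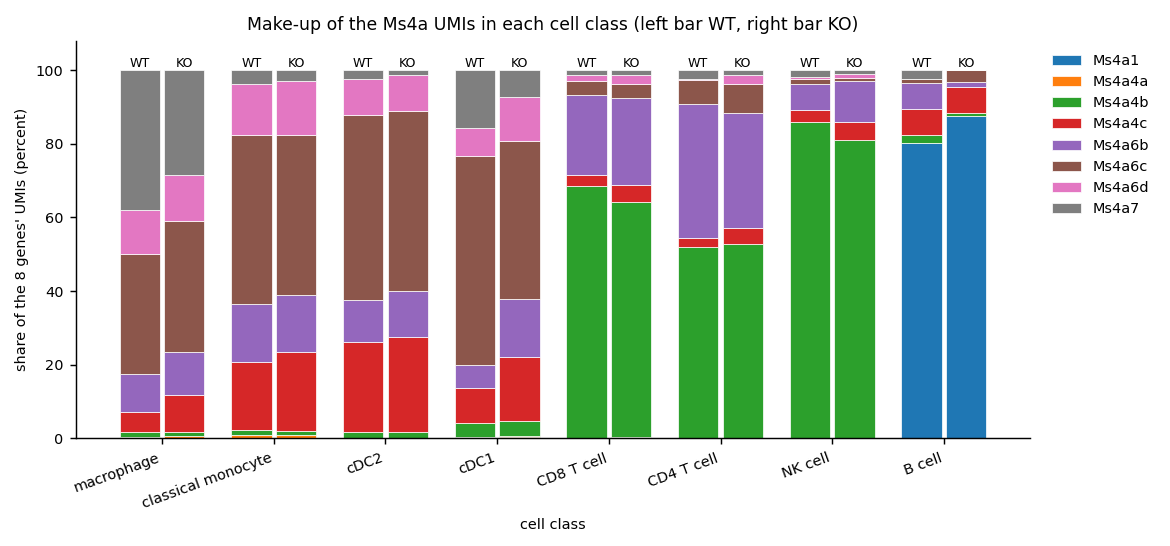
Share of each of the 8 genes in their summed UMIs (percent, stacked bars from 0 to 100) in 8 cell classes and subclasses, with a bar for each library. The largest share is Ms4a1 in B cells, Ms4a4b in NK and T cells and Ms4a6c in monocytes, and Ms4a7 makes up 38.1% (WT) and 28.4% (KO) of the 8 genes' UMIs in macrophages.

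Patterns across classes were compared over 24 points (12 classes and subclasses in each library) and 6553 genes. This is a description, since points of 1 library share their depth. CD8 and CD4 T cells entered as subclasses, without the T cell class that holds them. Ms4a6c and Ms4a6d were the most alike pair of members (Pearson r = 0.89), followed by Ms4a4a with Ms4a6d (0.80) and Ms4a4c with Ms4a6c (0.79). The neighbours Ms4a4b and Ms4a4c were at 0.30, and the closest pair on the chromosome, Ms4a4b and Ms4a6c, at -0.00. Among all genes the nearest to Ms4a1 were Gm31243, Pax5 and Ighg3 (0.99 each), to Ms4a4b Skap1 (0.93), Il2rb and Trbc1 (0.92 each), to Ms4a6c Pid1 (0.94), Pnp and Fcgr1 (0.92 each), and to Ms4a6d Clec4a1 (0.95), Dab2 and Ptpro. Ms4a7 was nearest to Trem2 (0.94), a lipid-sensing receptor of macrophages, then Cd93 and Lpl. Ms4a4a was nearest to Vcan (0.87), Chil3 and Ccl7, Ms4a4c to Fam49b (0.89), Arf6 and Actr2, and Ms4a6b to Cotl1 (0.90), S100a10 and Ifi206. Pax5, Trem2, Vcan and Chil3 are among the genes that placed the cells in classes.

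The libraries were then set against each other within each class. A gene had to reach 50 CPM in at least 1 of the libraries, and it was counted where the 2 levels differed by 1.5-fold or more on the log2(level + 1) scale, without a test. In macrophages, 1 of the 5 members at that level was higher in the library labelled KO (Ms4a4c) and 0 of 5 lower, beside 1.35% of 2812 genes higher and 0.284% lower. In classical monocytes 0 of 5 members passed in either direction, beside 3.2% of 2941 genes higher and 0.408% lower. T cells had 0 of 2 members past the fold, beside 0.875% higher and 0.525% lower, and cDC2 had 0 of 4, beside 3.37% higher and 2.52% lower. In cDC1, 2 of 3 members were higher (Ms4a4c and Ms4a6b) and 0 lower, beside 4.94% higher and 1.6% lower, and in granulocytes 0 of 1 was higher and 1 of 1 (Ms4a6c) lower, beside 15.9% higher and 7.19% lower. With TMM scaling, which corrects for the makeup of the 2 sums, the granulocyte shares turned to 6.73% higher and 15.1% lower. The cDC1 and granulocyte members entered only through the library in which they were high, so these 2 counts carry no weight. Counts of 0 lie near these shares and say nothing particular about the members.

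**Figure D3:**
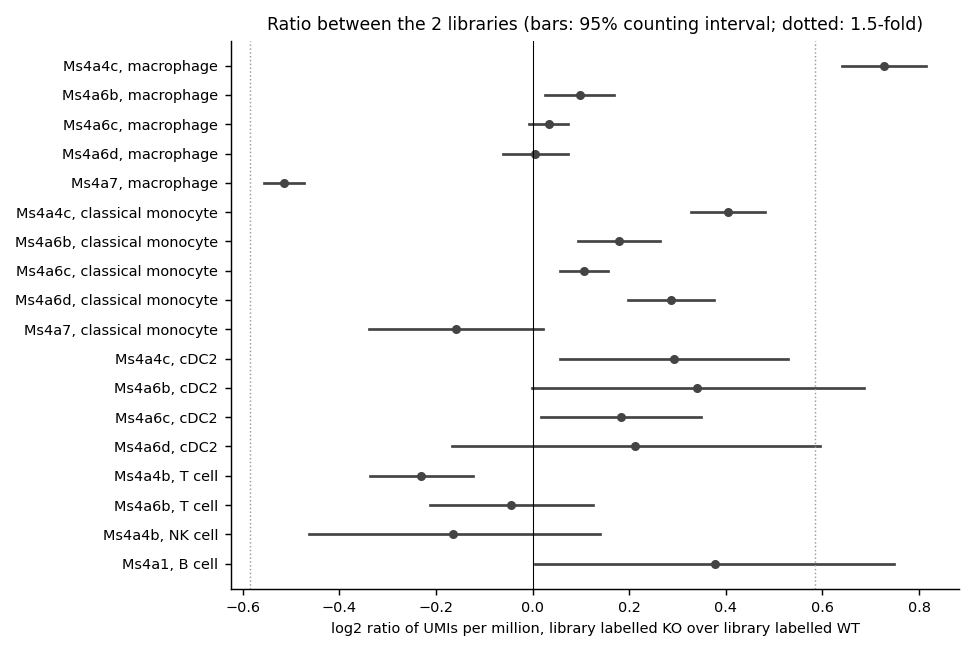
Log2 ratio of the level in the library labelled KO over that labelled WT for 18 pairs of gene and class, with exact conditional binomial 95% intervals of counting error as bars and 1.5-fold as dotted lines. In macrophages Ms4a4c lies at 0.73 and Ms4a7 at -0.51, while Ms4a6c and Ms4a6d lie near 0.

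Ms4a4c was higher in macrophages labelled KO, with 1731 UMIs (91.9 CPM) against 2733 (152) and a log2 ratio of 0.73 (0.64 to 0.81). On the log2(level + 1) scale, 21 of 2812 genes lay above it. With equal weight for each Leiden cluster of macrophages the ratio was 0.29, and among the 5 members at 50 or more it moved most with the choice of macrophages. In classical monocytes the ratio was 0.40 (0.33 to 0.48), with 240 of 2941 genes above it, and 0.057 with equal weight for each cluster. The ratio in cDC2 was 0.29 (0.06 to 0.53), and the alternatives moved it between 0.048 and 0.30. The classical monocyte markers summed to 1800 and 2517 CPM in cDC2, and their part in the ratio was not tested. In T cells the ratio of Ms4a4c, from 68 and 111 UMIs, was 0.47 (0.02 to 0.93). In cDC1 the level was 22.6 and 63.8 CPM from 30 and 68 UMIs, with the log2 ratio between 0.86 and 2.17 (0.31 with Leiden classes), and 17 of the UMIs labelled KO lay in 1 cell. In the same cDC1 cells the classical monocyte markers summed to 836 and 1081 CPM and the macrophage markers to 622 and 731, with the cDC1 markers at 1317 and 1355, and the part of such cells in the ratio was not tested.

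Ms4a7 was lower in macrophages labelled KO, at 615 (WT) and 431 CPM (KO), a log2 ratio of -0.51 (-0.56 to -0.47), short of 1.5-fold. On the log2(level + 1) scale 14 of 2812 genes lay below it, and over all alternatives the ratio was between -0.59 and -0.48. In classical monocytes the ratio was -0.16 (-0.34 to 0.02), and the alternatives moved it between -0.61 and 0.16, on both sides of 0. The other macrophage-rich members differed less: Ms4a6c by 0.03 (-0.01 to 0.07), Ms4a6d by 0.01 (-0.06 to 0.07) and Ms4a6b by 0.10 (0.03 to 0.17). In classical monocytes Ms4a6c differed by 0.11 (0.06 to 0.16), Ms4a6b by 0.18 (0.09 to 0.26) and Ms4a6d by 0.29 (0.20 to 0.38), and Ms4a4a by 0.15 (-0.21 to 0.51), all higher in the library labelled KO with only the last interval including 0. The alternatives moved the monocyte ratio of Ms4a6d between 0.081 and 0.32, that of Ms4a6b between 0.12 and 0.21 and that of Ms4a6c between 0.096 and 0.16. The macrophage ratios of the 5 members thus ran from -0.51 to 0.73.

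In lymphocytes, where Lyz2 is not known to drive Cre, Ms4a4b had log2 ratios of -0.23 (-0.34 to -0.12) in T cells, -0.25 (-0.38 to -0.13) in CD8 T cells, -0.16 (-0.51 to 0.20) in CD4 T cells and -0.16 (-0.46 to 0.14) in NK cells. On the log2(level + 1) scale 218 of 2857 genes lay below it in T cells. The difference stood at -0.25 (-0.37 to -0.13) in T cells without a Tcf7 UMI and at 0.01 (-0.24 to 0.25) in those with one. With classes from Leiden clusters it was -0.015 in T cells and 0.021 in CD8 T cells. The alternatives moved the Ms4a4b ratio between -0.26 and 0.21 in NK cells and between -0.29 and -0.13 in CD4 T cells. Ms4a6b differed by -0.04 (-0.21 to 0.12) in T cells.

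**Figure D4:**
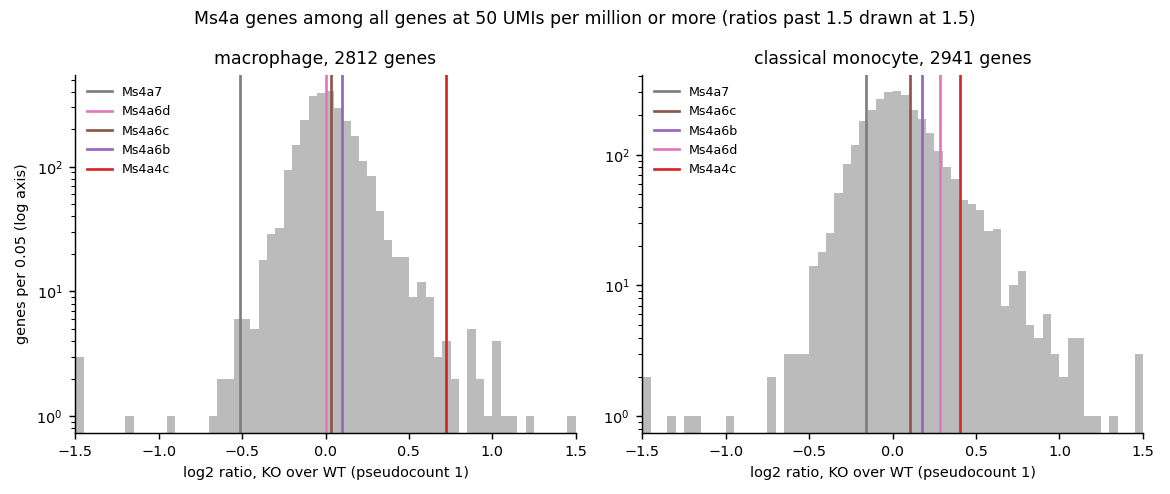
Number of genes (log axis) by log2 ratio of KO over WT with a pseudocount of 1, in steps of 0.05, for the 2812 macrophage genes and the 2941 classical monocyte genes at 50 CPM or more; ratios past 1.5 are drawn at 1.5. Coloured lines mark the 5 members at that level: in macrophages Ms4a4c lies to the right of all but 21 genes and Ms4a7 to the left of all but 14.

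Monocytes become macrophages in tumours, so the 2 classes are ends of a range. A difference in class scores under 0.1 was found in 197 of 2510 such cells labelled WT (7.85%) and in 385 of 4266 labelled KO (9.02%). All macrophages and classical monocytes were therefore ordered by the difference of the macrophage and monocyte scores and divided into 5 bins of equal cell number over both libraries. The first bin held 376 and 979 cells and the last 677 and 679. The ranking gene C1qa went from 44.4 to 4250 CPM labelled WT and from 36.1 to 4602 labelled KO, and Ly6c2 from 1027 to 13.7 and from 1174 to 15.3, a trend that the ordering fixes. Within bins 1 to 4 Ly6c2 was higher in the library labelled KO, with log2 ratios of 0.19, 0.46, 0.72 and 0.95. Its levels in bin 4 were 68.9 and 133 CPM, and its ratio in bin 5 was 0.16 (-0.22 to 0.54). Cells of a bin thus still differed between the libraries in this monocyte marker. Its part in the ratios of the Ms4a genes there was not tested.

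Ms4a4c fell along the bins, at 440.2, 393, 263, 106 and 43.1 CPM (WT) and 611, 464, 374, 142 and 54.3 (KO). It was higher in the library labelled KO in all 5 bins, with log2 ratios of 0.47, 0.24, 0.51, 0.41 and 0.33, whose intervals all lay above 0. Ms4a7 went the other way, at 33.7, 80.4, 217, 475 and 814 (WT) and 34.4, 67.8, 193, 353 and 619 (KO). It was lower in the library labelled KO in the last 3 bins beyond counting error, with ratios of -0.17, -0.43 and -0.39, and the first 2 ratios (0.03 and -0.25) had intervals that include 0. Taking the 5 bins with equal weight, the ratio over both classes moved from 0.86 to 0.40 for Ms4a4c and from -0.73 to -0.35 for Ms4a7. The direction of both genes was kept, at a smaller size. The bins were chosen after the data had been seen.

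Ms4a6c declined from 1157 to 506 CPM along the bins (WT) and from 1231 to 432 (KO), and its ratio was -0.23 (-0.29 to -0.16) in the last bin. Ms4a6b declined from 378 to 154 and from 433 to 138. Ms4a6d was the flattest, from 281 to 186 and from 367 to 158, with ratios of 0.39, 0.26, 0.25, -0.08 and -0.23. For these 3 genes the library labelled KO was therefore higher at the monocyte end and lower at the macrophage end. Ms4a4a declined from 23.1 to 4.202 and from 21.6 to 3.79.

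**Figure D5:**
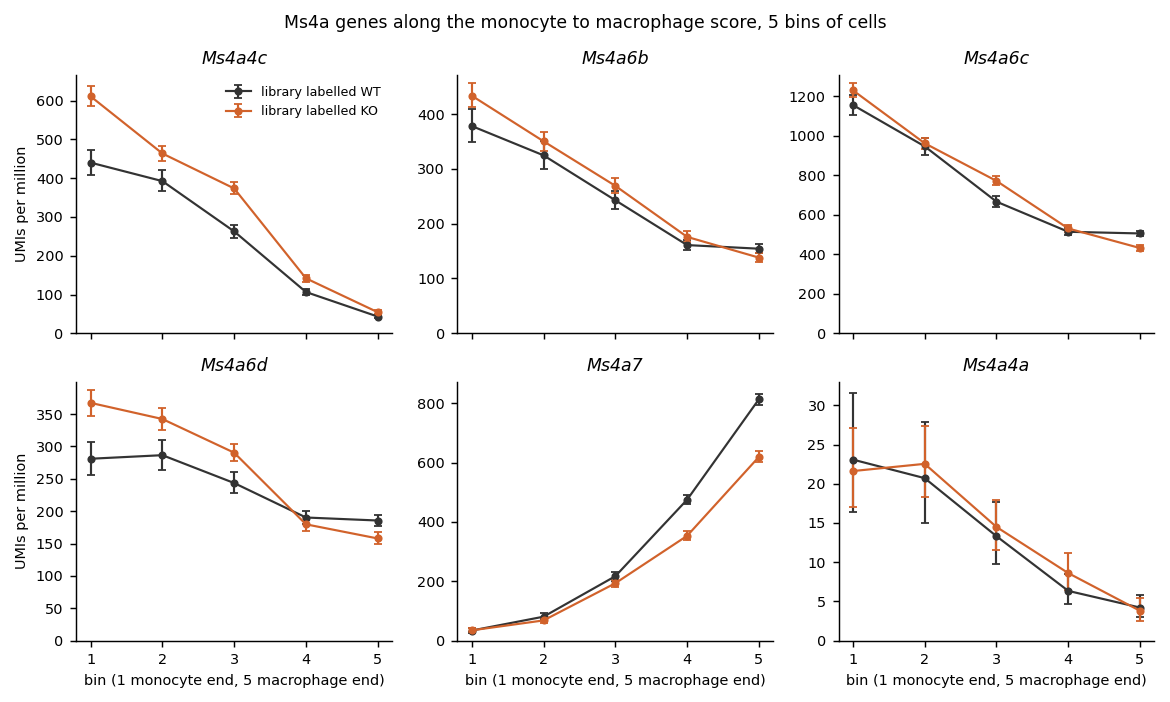
Level (CPM) of 6 myeloid members, with 1 panel each, in 5 bins from the monocyte end to the macrophage end, with exact Poisson 95% intervals for each library. Ms4a4c falls from 440.2 to 43.1 (WT) and from 611 to 54.3 (KO), Ms4a7 rises from 33.7 to 814 and from 34.4 to 619.

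Macrophages were also divided by a UMI of Mki67, a gene of dividing cells. Ms4a4c was at 50.5 and 72.8 CPM in macrophages with one and at 123 and 192 in the others, with log2 ratios of 0.53 (0.33 to 0.72) and 0.65 (0.55 to 0.75). Ms4a7 was at 601 and 426 with one and at 626 and 433 without, with ratios of -0.49 (-0.56 to -0.43) and -0.53 (-0.58 to -0.48). Macrophages with a Mki67 UMI were deeper (medians of 16488 and 13543.5 UMIs against 7978 and 6068). By a UMI of Arg1, the arginase gene, the ratios differed more between the parts. Those of Ms4a4c were 1.02 (0.87 to 1.17) with an Arg1 UMI and 0.55 (0.44 to 0.66) without. Those of Ms4a7 were -0.61 (-0.68 to -0.53) and -0.44 (-0.49 to -0.39).

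Other gene lists were counted the same way, in the same cells. Of 12 interferon-induced genes, 10 were higher by 1.5-fold in classical monocytes of the library labelled KO, of which Usp18 reached 50 CPM only in that library, beside the 3.2% of all genes. In macrophages Ifit1, Ifit2 and Ifit3 reached 50 CPM only in the library labelled KO, as did most of the genes past the fold in cDC1, cDC2 and T cells, so no count is read there. Isg15, a ubiquitin-like modifier, was at 200.2 and 411 CPM in macrophages and 406 and 897 in monocytes, and Rsad2, the antiviral viperin, at 72.7 and 149.8 and at 180.4 and 386. Irf7, a transcription factor of the interferon response, was at 104.5 and 220.0 in macrophages and Oasl2 at 56.7 and 97.9. In granulocytes 0 of 11 were higher and 1 was lower, beside 15.9% and 7.19% of all genes (6.73% and 15.1% with TMM scaling). Isg15 was higher in the library labelled KO in each of the 5 bins, from 367 and 955 at the monocyte end to 155 and 224 at the macrophage end. Thus Isg15, Irf7, Rsad2, Oasl2 and Ms4a4c were higher in macrophages of that library, and whether they are linked was not tested.

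Of 9 genes that mark the passage from monocyte to macrophage, 2 were higher in macrophages labelled KO, beside 1.35% of all genes, and both are monocyte genes: Ly6c2 at 61.1 and 143 CPM and Plac8 at 278 and 563. C1qa, a complement gene of macrophages, was at 3236 and 3198 and Trem2 at 394 and 332. Ccr2, another monocyte gene, was at 222 and 265 CPM in macrophages. None of the 9 passed the fold in classical monocytes, where 3.2% of all genes were higher and 0.408% lower. In that class the log2 ratios of Ly6c2, Plac8 and Ccr2 were 0.38, 0.33 and -0.18. Ly6c2, Plac8, Ccr2, C1qa, C1qb, C1qc and Trem2 were among the genes that placed the cells in classes. The gate thus bounds their levels there, and the counts of this list are not read against the shares of all genes. The classical monocyte markers summed to 883 and 1255 CPM in macrophages, beside the higher Ms4a4c and lower Ms4a7, and their part was not tested. Of 5 myeloid receptors and adaptors named with Ms4a proteins none passed the fold in macrophages, where 1.35% of all genes were higher and 0.284% lower. Tyrobp, the adaptor of Trem2, was at 1720 and 1628, Fcer1g, the common Fc receptor gamma chain, at 3635 and 3364, Fcgr1, the high-affinity IgG receptor, at 279 and 393, and Fcgr3 at 429 and 464.

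The remaining classes gave small numbers. In 116 and 97 cDC1 cells Ms4a6b was at 15.0 and 58.2 CPM (20 and 62 UMIs), a log2 ratio of 1.95 (1.205 to 2.76) that was 0.82 with Leiden classes, and Ms4a6d at 18.1 and 44.1 (1.29, 0.55 to 2.06), while Ms4a6c differed by 0.23 (-0.09 to 0.54) and Ms4a7 was at 36.9 and 26.3. Granulocytes, with 510 and 224 cells of low depth, held Ms4a6c at 50.4 and 29.1 (39 and 8 UMIs; -0.79, -2.10 to 0.32, and between -1.03 and 0.57 over the alternatives) and Ms4a4c at 33.6 and 25.4, where 17 of the 26 UMIs labelled WT lay in 1 cell. In plasmacytoid dendritic cells Ms4a6c was at 9.36 and 77.8, from 2 and 20 UMIs with 8 of the latter in 1 cell. Mature dendritic cells were at 45.1 and 52.7 for Ms4a4c and at 57.1 and 38.0 for Ms4a6c. At this depth, differences between the libraries in these classes rest on few cells.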

How the data were processed

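Live CD45+ cells of B16 tumours were measured in 2 libraries, 1 per genotype. The authors aligned the reads with Cell Ranger to mm10 (per the labels), and per the file headers version 4.0.0 made the deposited matrix of UMI counts, which were whole numbers with no normalisation for 31053 genes in 14341 barcodes. A deposited table gave each barcode's library, and no value column was left without a sample. Whether reads were subsampled is not given in the sources used here.

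Cells with at least 200 genes and at most 10% mitochondrial UMIs were kept (5661 and 8157). Scrublet in scanpy 1.11.5 marked 1 and 1 cells, so the highest scores were removed at 0.8% per 1000 cells (256 and 532 cells). Each cell was scored for every class as the mean of its markers' scaled log levels, held at 1.5, and took the highest score if 3 of 6 markers, or 2 of a list of 3 to 5, had a UMI. Cells where another lineage passed 0.5 of the top score were called mixed. UMIs were summed per class and library and expressed per 1000000 UMIs of the class (CPM). Genes past 1.5-fold were counted only in macrophages, classical monocytes, cDC1, cDC2, granulocytes and T cells, with a pseudocount of 1 CPM. Mature dendritic, plasmacytoid dendritic, NK and B cells also held at least 50 cells per library but were not counted. Classes compared by correlation needed 50 cells per library. Levels without a UMI have a floor of 3 UMIs.

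The members and lists were chosen with earlier results of these data known. Gate limits, bins and cell states were set after looking at the data. Named genes were all 8 members, the 3 genes nearest to each by Pearson correlation and the listed genes that a result turns on. Alternatives were Leiden clusters (leidenalg 0.10.2, resolution 1), a stricter gate, per-cell means, equal cluster weights, thinning to 1000 UMIs, kept doublets, a 5% mitochondrial limit, TMM scaling (edgeR 4.0.16, as a scaling only) and leaving out the cell with most UMIs of a gene. Some listed genes are not reported here. The scripts were tested on simulated data. Python 3.11.15, scipy 1.17.1, Biopython 1.88 (promoter alignments) and R 4.3.3 were used.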

Additional observations from a re-analysis of the deposited data

Results flagged for a closer look

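The 8 genes were also read in cells that the report's comparisons leave out, 967 cells labelled WT and 1227 labelled KO that passed no class or more than 1. All were above 0.647 (WT) and 0.756 (KO) CPM, the level of the floor of 3 UMIs there. Ms4a6c was the highest, at 384 and 465 CPM (WT and KO), followed in the library labelled KO by Ms4a4c, at 116 and 231, and Ms4a6b, at 165 and 229. Ms4a7 was at 209 and 133, Ms4a6d at 130.1 and 167, and Ms4a4b at 123 and 139. Ms4a4a, at 7.77 and 7.81, and Ms4a1, at 6.69 and 8.57, were low. These levels pool mixed and unplaced cells, in which Ms4a1 went opposite ways between the libraries. The differences have no replicate check.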

How the results depend on the processing

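For 34 pairs of member and class, the log2 ratio of KO over WT was recomputed under 10 alternatives (339 values), which leaves out the ratios of other genes, bins and cell states and the sparser members: 301 stayed within the counting interval of the reported value and 309 kept its sign. The T cell ratio of Ms4a4b was -0.015 with classes from Leiden clusters, -0.12 as a mean of per-cell levels and -0.077 with equal weight per cluster, and in CD8 T cells the Leiden classes gave 0.021. The macrophage ratio of Ms4a4c was 0.96 with Leiden classes, 0.29 with equal weight per cluster and 0.96 with cells thinned to 1000 UMIs, and its classical monocyte ratio was 0.057 with equal weight. The macrophage ratio of Ms4a7 was -0.59 with Leiden classes and -0.56 thinned. Ms4a6c in plasmacytoid dendritic cells was -0.60 with Leiden classes. The cause of these shifts was not tested.

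Counts of members past the fold: at 2-fold, 0 of 5 were higher in macrophages (0.284% of all genes), 0 of 1 lower in granulocytes (2.07%) and 2 of 3 higher in cDC1 (1.33%). With Leiden classes Ms4a7 was lower in macrophages (1 of 5 members, beside 0.461% of all genes), classical monocytes (1 of 5, 0.61%) and cDC1 (1 of 2, 1.77%), Ms4a6c and Ms4a7 were lower in T cells (2 of 4, 3.04%), 0 of 2 were higher in cDC1 (3.88%), and in granulocytes Ms4a4c and Ms4a6b were higher (2 of 5, 4.77%) and 0 lower (2.34%). A filter at 100 CPM left 0 of 1 higher in cDC1 (3.46%) and 0 members in granulocytes. At 20 CPM, 3 of 5 were higher in cDC1 (7.49%), 1 of 5 lower in cDC2 (6.22%) and 2 of 4 in granulocytes (9.31%). At that filter Ms4a6b and Ms4a6d entered in cDC1 only through the library labelled KO. Ms4a7 entered in cDC2 and granulocytes only through that labelled WT. As with the cDC1 and granulocyte members at 50 CPM, also at 2-fold, such counts carry no weight. TMM scaling shifted granulocyte ratios by -0.24 and those of macrophages, monocytes and T cells by at most 0.03 in size. Unthinned shares of cells with a UMI, for WT and KO, were 63.9% and 66.7% for Ms4a1 in B cells, 83.1% and 76.8% for Ms4a4b in NK cells, 69.2% and 73.1% for Ms4a4c in classical monocytes and 74.7% and 63.4% for Ms4a7 in macrophages. Chosen after seeing the data, equal weight for 5 bins gave 0.40 for Ms4a4c and -0.35 for Ms4a7 over macrophages and monocytes together, and leaving out the 26 cells with a shared barcode moved no ratio past its interval. No paired analysis was possible because each genotype is 1 library and the labels carry no replicate numbers.

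With 1 library per genotype, differences between mice, tumours and preparations cannot be told apart from genotype, and depth limits classes of few cells.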

Other observations

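The rest of the Ms4a family was sparse in these tumours. Ms4a8a, a gene known from macrophages, had 292 UMIs labelled WT and 536 labelled KO in the kept cells, at 23.2 and 25.2 CPM in classical monocytes and 6.79 and 12.3 in macrophages (log2 ratio 0.86, 0.54 to 1.18). Its order of monocytes over macrophages was that of Ms4a4c. Ms4a14 had 212 and 178 UMIs and lay with Ms4a7 in macrophages, at 9.55 and 7.62 CPM against 1.60 and 1.82 in classical monocytes, with a macrophage ratio of -0.33 (-0.66 to 0.00). Ms4a4d had 27 and 56 UMIs in all. Ms4a2, the IgE receptor chain, had 11 and 6 UMIs, of which 11 and 4 lay in the 8 and 5 cells of the mast cell or basophil class. Ms4a3, known from granulocyte and monocyte progenitors, had 1 and 12 UMIs, 6 of them in 1 cell. Ms4a10, Ms4a15 and Ms4a5 had at most 2 UMIs per library and Ms4a12, Ms4a13 and Ms4a18 had 0.

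Tmem176a and Tmem176b, related 4-span membrane proteins of antigen-presenting cells, were highest in mature dendritic cells among the classes of at least 50 cells, at 619 and 534 and at 537 and 526 CPM. In macrophages Tmem176a was at 53.6 and 37.4 (log2 ratio -0.52, -0.66 to -0.38) and Tmem176b at 88.9 and 66.7 (-0.42, -0.52 to -0.31), and in classical monocytes both were lower in the library labelled KO too, at 116 and 86.5 and at 180.2 and 129.7. These ratios compare 2 libraries and were not tested.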
